A study of Homo sapiens with 6 samples.

Results

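Digestive enzyme genes of the exocrine pancreas were examined spot by spot on 6 cDNA arrays of a neuroblastoma cell line, a cell type in which they are not thought of as active. Of 10 listed genes, 8 had at least 1 spot: CELA3B, CELA3A, CELA2A, CTRB1, CPA1, CPB1, PNLIP and PNLIPRP1. They accounted for 11 of 9169 spots tested, and 8 of the 6255 named genes. PRSS1 and CEL, which encode cationic trypsinogen and the bile salt-stimulated lipase, had no spot under either name and were not analysed here. The genes were selected partly on measured values: CELA3B and PNLIPRP1 had stood among the highest differences of this same comparison, and relatives of them were added by function. The differences below are therefore given as a description, with no test of any member.

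The DN-TRF2 group held 3 samples of SH-SY5Y cells, a human neuroblastoma line with features of immature sympathetic neurons, transfected with the vector pIRES2-EGFP carrying a dominant-negative form of TRF2, a telomere-binding protein. The GFP control group held 3 samples of the same line with the vector pEGF-C2 and no insert, so that effects of insert and backbone cannot be told apart. Both groups were kept in geneticin at 500 µg/ml, and total RNA was taken on day 7. Each sample came from 1 of 3 separate experiments, and about 5 µg of its RNA, radiolabelled with 33P-dCTP, went onto 1 array of 9600 positions. The targeted protein's own gene was not analysed here. In bulk RNA of this kind, more expressing cells and more RNA per cell cannot be told apart.

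Acinar cells of the pancreas make digestive enzymes in large amounts, store most proteases as inactive zymogens and release them into the gut. The elastases, chymotrypsins and trypsins are serine proteases that cut within protein chains, the carboxypeptidases trim the chain ends, and the lipases split dietary fat. The transcription factor complex PTF1, which holds the basic helix-loop-helix protein PTF1A, drives many of these genes through sites that include the E-box CACCTG. Neural crest-derived cells, from which neuroblastoma arises, are not known as a source of these enzymes.

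Signal at the 11 spots lay mostly in the lower part of the array's range. Their intensities ran from 81.1 to 3808, against a highest value of 25.02 at the blank positions, where 94.2% of values were exactly 10. Mean signal, as log2(intensity + 50) after quantile normalization, was below the median of all spots at 8 of the 11 and above it at 3, with percentiles from 12.8 for CPA1 to 93.3 for CELA2A. The spots of insulin (INS) and albumin (ALB) stood at percentiles 19.8 and 19.3, above CPA1. A level above the blanks was therefore not read as expression of the named gene. Spots of 1 gene did not share a level: the 4 CELA3A spots lay at percentiles 24.7, 87.1, 20.4 and 23.5, a spread of 3.39 on the log2 scale between the brightest and the dimmest. Levels were therefore compared within a spot only. For the same reason signal levels are no check of the labelled cell type, and the marker spots are given as a description only. Of 26 spots of 14 sympathetic neuroblastoma genes 21 were above the median signal, with DBH, the enzyme that makes noradrenaline, at percentile 78.0, and the transcription factor HAND1 at 3.4. The receptor gene RET had 1 spot at percentile 0.5 and another at 60.9. TH was not analysed here. Spots above the median were 3 of 7 for islet genes, 2 of which were CHGA, a gene neuroblastoma cells also express, with glucagon (GCG) the third. They were 3 of 6 for duct genes, 2 of 8 for liver genes and 1 of 1 for the gut gene VIL1.

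The difference between the groups, DN-TRF2 minus GFP control on the log2 scale, was positive at 8 of the 11 spots, where 47.3% of all spots had a higher mean in DN-TRF2. Its median over the 11 was 0.34, against -0.011 over all spots, with 0.091 when GFP control replicate 3 was left out and 0.19 when GFP control replicate 1 was. The 3 DN-TRF2 arrays lay above all 3 GFP control arrays at 5 of the 11 spots, where 4.28% of all spots did so. They lay below them at 0 of the 11, against 4.43% of all spots. Over all 9169 spots 0 (0%) passed limma's test at a Benjamini-Hochberg adjusted p under 0.05, and 313 had an unadjusted p under 0.05. Because the genes were selected on this comparison, nothing is read from these counts.

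**Figure D1:**
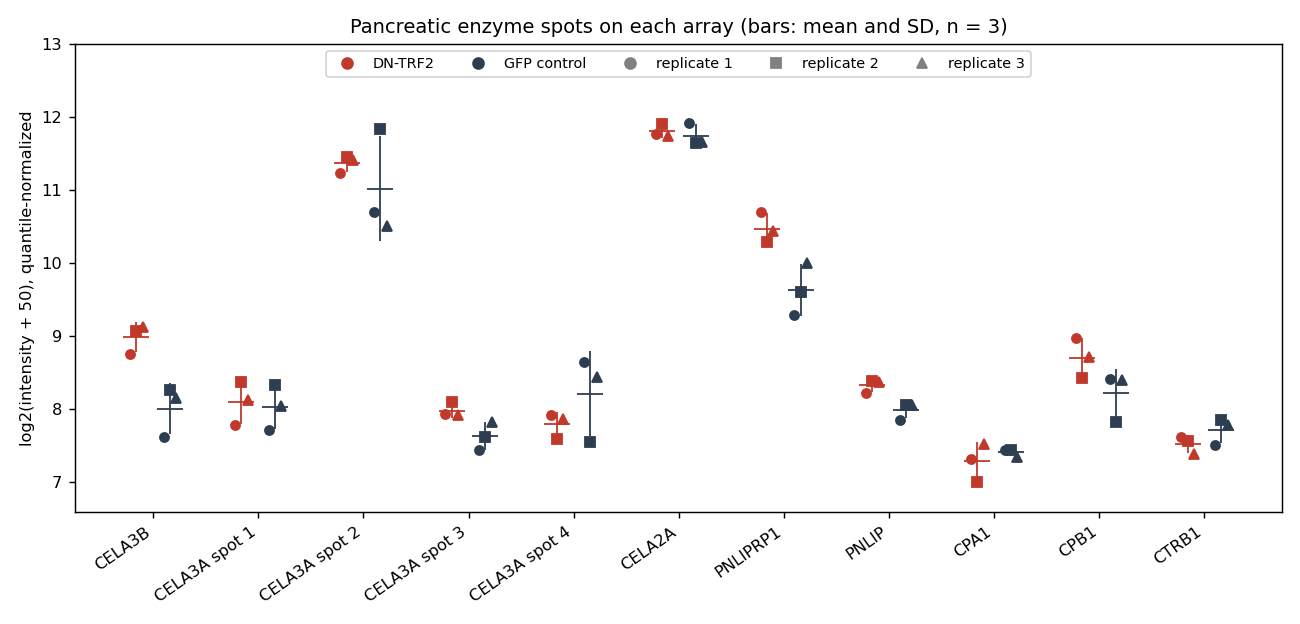
Quantile-normalized log2(intensity + 50) on the y axis for each pancreatic enzyme spot, DN-TRF2 arrays (red, left) beside GFP control arrays (dark, right), with symbols for the replicate number and bars for mean and SD (n = 3). The groups are apart at CELA3B, CELA3A spot 3, PNLIPRP1, PNLIP and CPB1 and overlap at the other 6 spots.

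CELA3B encodes a chymotrypsin-like elastase that, despite its name, cuts elastin poorly and prefers alanine. At its 1 spot (clone BC005216) intensity was 345, 493 and 601 on the DN-TRF2 arrays, against 122.9, 223 and 291 on the GFP control arrays. All 3 DN-TRF2 arrays were above all 3 controls, both as deposited and after normalization. The normalized values were 8.76, 9.08 and 9.13 in DN-TRF2, against 7.62, 8.26 and 8.15 in GFP control. The difference was 0.98 ± 0.20 (SE, log2, n = 3 per group), the second highest of all spots. It was 1.14, 0.81 and 0.98 at replicate numbers 1, 2 and 3. With 1 array left out it ran from 0.78 without GFP control replicate 1, the lowest of the control arrays at this spot, to 1.10.

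CELA3A is the neighbouring gene of CELA3B on chromosome 1 and encodes a close copy of the same protease. The promoters of the pair are shown because they are near-identical while the spots of the 2 genes gave different values. They are RefSeq windows of 300 bases on the plus strand of GRCh38.p14, at chr1:21976772-21977071 for CELA3B and chr1:22001407-22001706 for CELA3A. Capitals mark CACCTG or its reverse complement.
CELA3B: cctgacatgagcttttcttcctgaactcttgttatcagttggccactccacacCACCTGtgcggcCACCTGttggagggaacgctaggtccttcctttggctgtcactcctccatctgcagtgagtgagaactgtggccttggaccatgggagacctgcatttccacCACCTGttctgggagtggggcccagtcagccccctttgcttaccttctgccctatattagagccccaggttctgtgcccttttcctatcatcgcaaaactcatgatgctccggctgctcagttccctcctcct
CELA3A: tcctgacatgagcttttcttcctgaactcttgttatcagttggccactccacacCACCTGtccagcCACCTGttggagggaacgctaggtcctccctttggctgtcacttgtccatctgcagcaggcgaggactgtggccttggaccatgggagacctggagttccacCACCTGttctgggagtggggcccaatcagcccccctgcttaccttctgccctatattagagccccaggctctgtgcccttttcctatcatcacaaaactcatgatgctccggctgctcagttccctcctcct
Aligned over 299 bases, the windows were identical at 283 (94.6%). Each held 3 matches to CACCTG, searched on both strands as the only motif. Of all 35116 windows 20.6% held at least 1 match and 0.64% at least 3. A window was found for 9 of the 10 listed genes, and 7 of those held a match: CELA3B, CELA3A, PNLIPRP1, CPA1, CPB1, PRSS1 and CEL. CELA2A and PNLIP held none. These matches describe letters in the window and no binding was measured.

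The 4 CELA3A spots went both ways. At spot 1 (clone BC005918) intensity was 154, 289 and 275 in DN-TRF2, against 134, 235 and 264 in GFP control, a difference of 0.067 ± 0.20 with the groups overlapping. It was 0.070, 0.045 and 0.086 at replicate numbers 1, 2 and 3, positive in each. Its sign turned to -0.089 without GFP control replicate 1, to -0.072 without DN-TRF2 replicate 2 and to -0.067 after the correction for printing position described below. Spot 2 (clone BC015103), the bright one, had 2097, 2686 and 2913 in DN-TRF2, against 1368, 3597 and 1696 in GFP control. The control arrays there enclosed all 3 DN-TRF2 values, and 1 of them, GFP control replicate 2, was the highest of the 6. The difference of 0.35 ± 0.30 came to 0.76 without that array and 0.091 without GFP control replicate 3.

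At CELA3A spot 3 (clone BC007028) intensity was 174, 228 and 229 in DN-TRF2, against 105, 121 and 220 in GFP control. The groups overlapped as deposited and were apart after normalization, with a difference of 0.35 ± 0.15. At spot 4 (clone BC008383) intensity was 172, 147 and 218 in DN-TRF2, against 293, 112 and 371 in GFP control, a difference of -0.42 ± 0.26. Here GFP control replicate 2 was the lowest of the 6 arrays and the other 2 controls the highest, so the groups overlapped. The difference was -0.75 without GFP control replicate 2 and -0.20 without GFP control replicate 1. Averaged over its 4 spots, CELA3A differed by 0.087, set against 0.98 at the CELA3B spot. A clone of either gene may hybridize with RNA of the other, and how far the 2 were separated on these arrays was not tested.

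CELA2A, which encodes a second elastase, had the brightest spot of the group (clone BC007031). Intensity was 3132, 3762 and 3544 in DN-TRF2, against 3808, 3163 and 3550 in GFP control. The groups overlapped, and the difference of 0.069 ± 0.15 turned to -0.066 with median scaling of the arrays, -0.011 with no normalization and -0.034 after the correction for printing position. Leaving out GFP control replicate 1 gave 0.15, and leaving out replicate 2 of the same group gave 0.019. CTRB1 encodes the zymogen chymotrypsinogen B. Its spot (clone BC005385) had 134, 143 and 141 in DN-TRF2, against 110, 155 and 212 in GFP control, a difference of -0.19 ± 0.15 with overlap. That difference was -0.30 without GFP control replicate 1, and -0.12 without GFP control replicate 2 or without DN-TRF2 replicate 3.

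The carboxypeptidase spots differed in sign. CPA1, which removes aromatic and aliphatic residues from chain ends, had the dimmest spot (clone BC005279), with 102, 81.1 and 162 in DN-TRF2, against 105, 99.1 and 142 in GFP control. The DN-TRF2 arrays enclosed the controls, and the difference of -0.13 ± 0.17 turned to 0.016 without DN-TRF2 replicate 2. CPB1, which removes basic residues, had 404, 301 and 440 at its spot (clone BC015338) in DN-TRF2, against 244, 152 and 362 in GFP control. The groups overlapped as deposited. After normalization the lowest DN-TRF2 array, at 8.43, lay just above the highest control array, at 8.42, and the difference was 0.48 ± 0.21, or 0.29 without GFP control replicate 2. At replicate numbers 1, 2 and 3 it was 0.55, 0.60 and 0.30.

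Both lipase spots were higher in DN-TRF2. PNLIPRP1 encodes a relative of pancreatic lipase that has little lipase activity itself. Its spot (clone BC005233) had 1449, 1189 and 1511 in DN-TRF2, against 476, 687 and 1183 in GFP control. All DN-TRF2 values were above all controls, but by little on the deposited scale, at 1189 in DN-TRF2 replicate 2 against 1183 in GFP control replicate 3. Normalized values were 10.70, 10.29 and 10.43 in DN-TRF2, against 9.29, 9.60 and 10 in GFP control. The difference was 0.84 ± 0.20, the fifth highest of all spots, at 1.41, 0.69 and 0.43 for replicate numbers 1, 2 and 3.

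PNLIP, the neighbouring gene on chromosome 10, encodes the main triglyceride lipase of pancreatic juice. At its spot (clone BC014309) intensity was 224, 292 and 336 in DN-TRF2, against 153, 188 and 268 in GFP control. The groups overlapped as deposited and were apart after normalization. The difference was 0.34 ± 0.14, alike at all 3 replicate numbers (0.37, 0.33 and 0.32).

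Spread within the groups was unequal over the whole series and at these spots. The SD was larger in GFP control at 10 of the 11 spots, CPA1 being the exception, and at 78.0% of all spots. SDs at the 11 spots ran from 0.088 to 0.29 in DN-TRF2 and from 0.057 to 0.72 in GFP control.

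Where a spot lay on the array moved with its difference. The file lists the 9600 positions in 384 runs of 25, and the values fit a layout of 16 rows by 24 columns of blocks, each block a square of 25 positions whose last is blank. No layout file was used, so this arrangement is inferred. Between spots at the same position in adjacent blocks of a row, differences correlated at 0.464 over 9107 pairs. For adjacent blocks of a column the correlation was 0.438 over 8562 pairs. Along a row of the grid it was 0.021 at a distance of 60 steps over 4562 pairs. These pairs share arrays and region, and the correlations are descriptions across spots.

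Across the array the difference ran from high at block column 1 to low beyond block column 10. Its median over all spots was 0.21 in block column 1, where 90.9% of spots were higher in DN-TRF2, and -0.074 in block column 24, where 30.8% were. Over block columns 1 to 9 the median was 0.10 and over block columns 10 to 24 it was -0.073. GFP control replicate 2 carried the steepest change, with a median deviation from the spot mean of -0.33 in block column 1 and 0.19 in block column 24. Without that array the median difference was 0.11 in block column 1, 0.027 in block columns 1 to 9 and -0.018 in block columns 10 to 24. Leaving out GFP control replicate 3 instead gave 0.29, 0.17 and -0.13 for the same regions.

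The 4 pancreatic enzyme spots in block columns 1 to 9 all had a positive difference, with a median of 0.42. Positive differences were common there: by block column, from 65.5% (column 8) to 90.9% (column 1) of all spots were higher in DN-TRF2. The 7 pancreatic enzyme spots in block columns 10 to 24 had 4 positive ones and a median of 0.067, where 30.7% of all spots were higher. PNLIPRP1 and CPB1 both lay in block column 1, at the edge where most spots had a higher mean in DN-TRF2 and where the groups were apart in that direction at 25.5% of spots. PNLIP and CELA3A spot 3 lay in block columns 7 and 8. CELA3B lay in block column 15, where the median difference was -0.092 and the groups were apart with DN-TRF2 higher at 1.6% of spots.

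**Figure D2:**
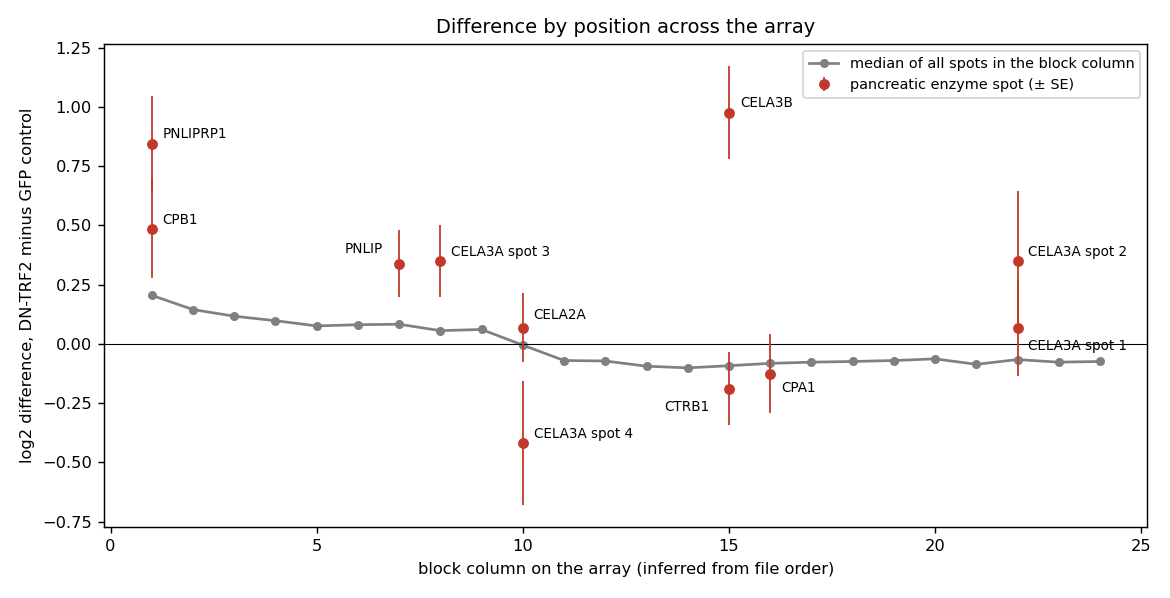
Log2 difference, DN-TRF2 minus GFP control (y axis), against block column (x axis): grey points are medians of all spots of a column, red points the 11 pancreatic enzyme spots with SE. PNLIPRP1 and CPB1 stand in block column 1, where the median of all spots is 0.21, and CELA3B stands at 0.98 in block column 15, where it is -0.092.

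Set against the spots around it, CELA3B lay above all of them. CELA3B and PNLIPRP1 were selected for differences among the highest of all spots. Their standing above most or all neighbours was therefore largely fixed by that choice. Within 5 steps of CELA3B on the grid, 115 spots had a median difference of -0.12 with an SD of 0.13, and the highest was 0.27, so that 0 reached the CELA3B value. The spots touching it were 7, with a median of -0.12 and a range of -0.38 to 0.27. The 8 spots at the same printing position in the surrounding blocks ran from -0.30 to 0.094, the last being glucagon (GCG).

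Around PNLIPRP1 the local level was itself positive. Within 5 steps, 63 spots had a median of 0.18, 57 of them were positive, and 1 exceeded PNLIPRP1, at 0.91. The 5 spots at the same printing position in adjacent blocks were all positive, from 0.12 to 0.52, with a median of 0.30. One of them was the ribonuclease gene RNASE1, another product of the pancreas, at 0.50 ± 0.22. Around CPB1 the 63 nearby spots had a median of 0.27, 61 were positive and 3 exceeded it. The 5 same-position spots of CPB1 had a median of 0.38, and 1 of them, the kinase subunit gene PRKAG2, exceeded it at 0.67 ± 0.23.

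Around PNLIP and all 4 CELA3A spots the level at the same printing position was also positive. The 8 same-position spots had medians of 0.23 around PNLIP, 0.17 around CELA3A spot 1, 0.19 around spot 2, 0.25 around spot 3 and 0.21 around spot 4, whose own difference was negative. Within 5 grid steps the medians were 0.074 around PNLIP, -0.065 around CELA3A spot 1, -0.023 around spot 2 and 0.070 around spot 3. Same-position spots that exceeded the member were OR7E91P and UBB for PNLIP, at 0.43 and 0.38, and RPL32P3 for CELA3A spot 2, at 0.39. At spot 3 the genes SLA, ANAPC13 and PAIP1, at 0.40, 0.39 and 0.48, exceeded the 0.35 of the member, as did FAM222A-AS1 among the touching spots at 0.54. CELA3A spot 4 was lower than all 116 spots within 5 steps, whose median was 0.089 and lowest value -0.39. The local medians at CELA2A, CTRB1 and CPA1 were 0.033, -0.099 and -0.032, and 47, 84 and 85 of the nearby spots lay above the member.

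**Figure D3:**
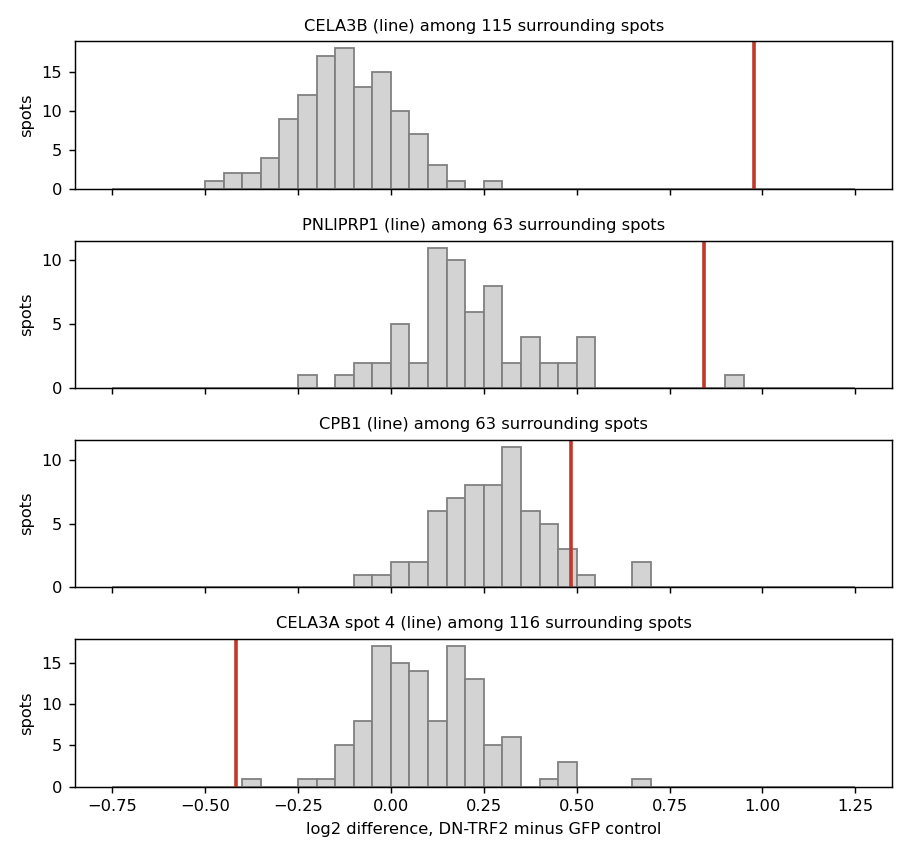
Histograms of the log2 difference (x axis) for the spots within 5 grid steps of CELA3B, PNLIPRP1, CPB1 and CELA3A spot 4, with the y axis counting spots and a red line at the member's own difference. The CELA3B line lies beyond all 115 surrounding spots, the CELA3A spot 4 line below all 116, and the CPB1 line inside its 63. CELA3B and PNLIPRP1 were selected for high differences in this comparison.

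When the local level was subtracted on each array, CELA3B kept its value and the group as a whole moved toward 0. CELA3B and PNLIPRP1 had been selected for high differences on these same arrays. Their high ranks after correction were therefore largely set by that choice. Subtracting the median deviation of spots within 5 grid steps gave 1.09 ± 0.18 for CELA3B, the highest of all 9169 spots. It gave 0.62 ± 0.19 for PNLIPRP1, 0.27 ± 0.13 for PNLIP and 0.19 ± 0.17 for CPB1. CELA3A spot 4 came to -0.52 ± 0.27, the 13th lowest of all spots. The median over the 11 was 0.19 and the groups were apart with DN-TRF2 higher at 3 of them, against 4.76% of all spots so corrected.

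Subtracting the spots at the same printing position in adjacent blocks left CELA3B at 1.10 ± 0.14, again the highest, and PNLIPRP1 at 0.53 ± 0.18, 32nd from the top. The remaining positive members came to between 0.052 and 0.19, with PNLIP at 0.052 ± 0.13, CELA3A spot 3 at 0.079 ± 0.12 and CPB1 at 0.11 ± 0.11. CELA3A spot 4 came to -0.62 ± 0.26, the 4th lowest of all spots. The other negative members lay between -0.16 and -0.034. The median over the 11 was 0.052, and 6 of 11 were positive. The groups stayed apart at CELA3B and PNLIPRP1 among the members, against 5.01% of all spots with DN-TRF2 higher. In each of these corrected fits 0 spots passed limma's adjusted p over all spots, with 320 and 318 at an unadjusted p under 0.05. Both were added after the data were seen. The planned correction subtracted the 12 spots on each side in file order and moved the group less. Its median over the 11 was 0.26, with 8 positive and the groups apart at 4, against 4.64% of all spots. It gave 1.11 for CELA3B, 0.61 for PNLIPRP1, 0.39 for CELA3A spot 3, 0.27 for CPB1 and 0.26 for PNLIP. CELA3A spot 4 came to -0.465. CPB1 lay at position 6 of block column 1. Under the inferred layout, some of the spots before it in the file fell in block column 24 of the row above.

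**Figure D4:**
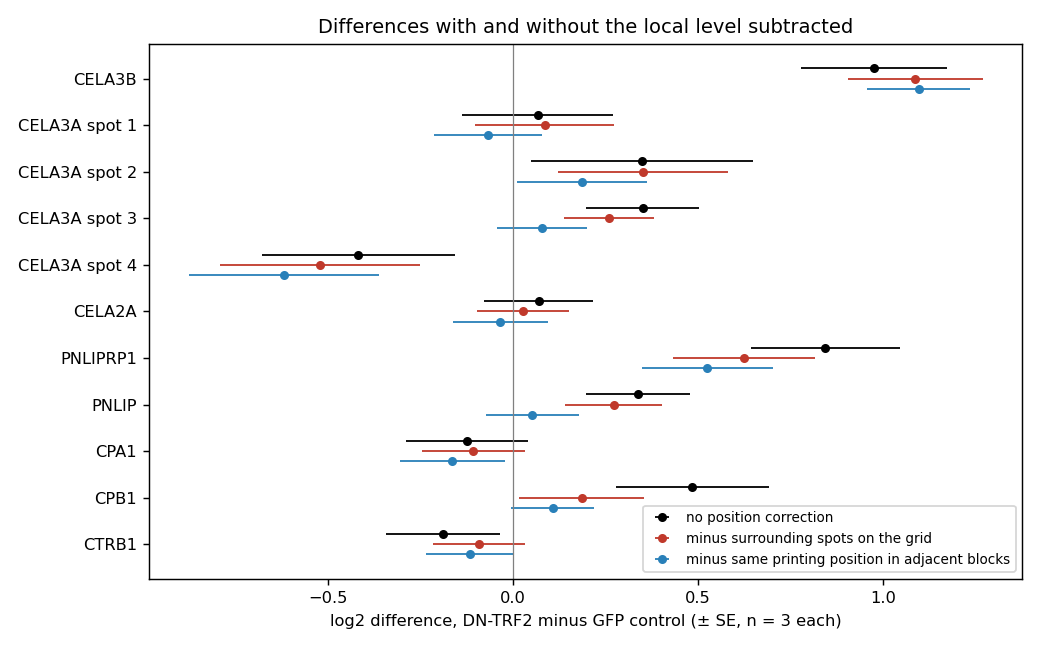
Log2 difference, DN-TRF2 minus GFP control, with SE (x axis, n = 3 each) at each spot (rows), uncorrected in black, after subtracting surrounding spots in red and after subtracting the same printing position in adjacent blocks in blue. CELA3B stays near 1 in all 3, PNLIPRP1 lies between 0.53 and 0.84, and CPB1 and PNLIP lie nearer to 0 after correction.

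The members shared a place in printing that the choice of genes did not use. Of the 11 spots 7 were at position 16 of their block, which held 384 tested spots, 4.19% of all. These were CELA3B, CELA3A spots 3 and 4, CELA2A, PNLIPRP1, CPA1 and CTRB1. Position 16 also held 6 of the 12 spots of other acinar genes, 4 of 7 islet spots and 5 of 8 liver spots, but 0 of the 26 sympathetic neuroblastoma spots. The median difference over all 384 spots at this position was 0.033, and their median signal of 9.09 was close to the 9.29 over all spots. The part that position played in the differences of the members was not tested beyond the subtractions above.

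Other acinar secretory genes were measured for 11 of 33 listed. Of their 12 spots 7 had a positive difference, where 47.3% of all spots did. The median was 0.069 and 0 passed limma's adjusted p. RNASE1 and the cathepsin gene CTSB, which most cell types express, had 0.50 ± 0.22 and 0.49 ± 0.19 with overlapping groups. RNASE1 lay in block column 2 and came to 0.309 after subtraction of the surrounding spots. CTSB, in block column 15, came to 0.595. The amylase gene AMY2B differed by 0.27 ± 0.15 and CTRC, a chymotrypsin that degrades trypsin, by 0.26 ± 0.14. In both the groups were apart with DN-TRF2 higher, so at 2 of the 12 spots, against 4.28% of all spots. AMY2B lay in block column 1 and came to 0.034 after subtraction of the surrounding spots, while CTRC came to 0.31. PNLIPRP2, a lipase, differed by 0.25 ± 0.30 and KLK1, tissue kallikrein, by -0.20 ± 0.19. The 6 spots of the remaining 5 genes lay between -0.12 and 0.097. Amylase genes are close copies of each other, so that a clone of 1 may also take up RNA of another.

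Of 11 listed acinar transcription factors only XBP1 and FOXA2 had spots. XBP1, a factor of the secretory stress response, differed by -0.023 ± 0.14 and 0.52 ± 0.24 at its 2 dim spots. The groups overlapped at both XBP1 spots. FOXA2 differed by -0.30 ± 0.15, with all 3 DN-TRF2 arrays below all 3 controls, as at 4.43% of all spots. After subtraction of the surrounding spots FOXA2 came to -0.194 and the XBP1 spots to -0.138 and 0.333. PTF1A was not analysed here. Related enzymes made outside the pancreas had 6 spots, of which 2 were positive, against 47.3% of all spots, with a median of -0.021. They ran from -0.13 ± 0.18 for the carboxypeptidase gene CPZ to 0.33 ± 0.17 for LPL, lipoprotein lipase, with KLK3 at 0.11, CPA3 at -0.057, GZMA at -0.035 and CTSG at -0.0060. In these 2 lists 0 spots passed limma's adjusted p.

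Lists of markers of other pancreatic and liver cells had median differences near the -0.011 of all spots, while some single spots differed more. The islet list had a median difference of 0.046 over 7 spots, with insulin (INS) at -0.077 ± 0.14 and glucagon (GCG) at 0.094 ± 0.17. Its CHGA spots had 0.036, 0.060 and -0.53 ± 0.20, all with overlap. The duct list had -0.051 over 6 spots and the liver list 0.015 over 8, with albumin (ALB) at -0.015 ± 0.16. SPP1 of the duct list had 0.32 ± 0.16 with the groups apart and -0.23 ± 0.18 with overlap. FGG of the liver list had 0.26 ± 0.15 with the groups apart and 0.27 ± 0.19 with overlap. The SPP1 and FGG spots with the groups apart both lay in block column 3. They came to 0.146 and 0.076 after subtraction of the surrounding spots, and the overlapping ones to -0.187 and 0.37. The 3 blood and immune spots (CD14, LYZ and HBB) had a median of 0.18, which was 0.019 after subtraction of the surrounding spots, and the 1 gut spot, of VIL1, had 0.13. The sympathetic neuroblastoma list had 0.036 over 26 spots, from -0.57 ± 0.20 at a TUBB3 spot to 0.46 ± 0.18 at GAP43. The groups were apart with DN-TRF2 higher at 0 of 7 islet, 1 of 6 duct and 1 of 8 liver spots. The same held at 2 of 3 blood and immune spots and 1 of 26 neuroblastoma spots (GATA3, 0.45 ± 0.15), against 4.28% of all spots. They were apart with DN-TRF2 lower at 1 of those 26, another TUBB3 spot at -0.48 ± 0.18, against 4.43% of all spots. These GATA3 and TUBB3 spots, in block columns 3 and 16, came to 0.293 and -0.372 after subtraction of the surrounding spots. In each of these lists 0 spots passed limma's adjusted p.

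Over the 6 arrays, the named spots nearest to CELA3B by distance between values centred on the spot mean were OTUB2, SMARCE1, NEIL1, SMPX and GNG11, among 8450 compared. Their distances ran from 0.36 to 0.51 on the log2 scale. Their differences ran from 0.60 for SMPX to 0.87 for OTUB2, and none was a listed pancreatic gene. Large positive differences among them follow from the distance itself, which was taken to CELA3B over the same arrays.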

How the data were processed

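The authors deposited 1 linear intensity value per spot and array. For image software, background treatment and scaling, the method is not given in the sources used here. Array medians ran from 480 to 712. The value 10 was read as a stand-in for no signal: the 384 blanks were left out, as were 47 more spots that held 10 on each array. Gene names came from the platform annotation. Of 8517 annotated spots, 8493 matched a RefSeq gene (GRCh38.p14) and took its symbol. An offset of 50 was added, log2 taken, arrays quantile-normalized, and each spot fitted across all genes with limma 3.58.1 in R 4.3.3 (SEs are moderated, two-sided tests). The step was checked on simulated data. The number of arrays limits precision. Promoters were aligned with Biopython 1.88.

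The members and lists were chosen with earlier results of these data known. The naming rule took every member spot, up to 6 genes per enzyme list by size of difference, neighbours whose difference exceeded a member's, and the 5 spots nearest to the highest member. Marker genes of other lists, and the neighbours GCG and RNASE1, were named after their values were seen. Neighbours exceeding members with small or negative differences were many and are given by count or median only. Same-numbered arrays deviated from their group means together (correlations 0.39, 0.296 and 0.246), so the numbers can pair the samples. The printed differences and SEs are from the fit without a replicate block, which was run as an alternative. Further alternatives were other offsets and scalings, other filters, array weights, position corrections and leaving out each array. TRF2 and REST were not analysed here.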

Additional observations from a re-analysis of the deposited data

How the results depend on the processing

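The median difference of the pancreatic enzyme spots was positive in all 19 alternatives, although 1 of them held only 3 of the 11 spots. It was 0.34 with all arrays, ran from 0.091 (without GFP control replicate 3) to 0.35 with 1 array left out, and was 0.052 after subtraction of the same printing position, a correction added after seeing the data together with the grid window. The count of positive spots, 8 of 11, ran from 7 to 8 with 1 array left out and was 6 after subtraction of the same printing position. The filter on spots above the median signal left 3 of the 11 and gave no such count. CELA3B stayed positive in all 18 alternatives that held it, between 0.78 and 1.14, and PNLIPRP1 in all 19, between 0.53 and 1.03. Both had been selected for high differences on these arrays, so their staying positive is no separate check. Nor is that of the median over the members, which were chosen with earlier results of these arrays known. Signs turned under some alternatives at CELA3A spot 1, CELA2A and CPA1, whose differences were small. With the replicate block, which leaves the differences as they are, the median was 0.34 and 0 spots passed limma's adjusted p over all spots (smallest 0.269, with 527 at an unadjusted p under 0.05). With an offset of 1 in place of 50, 1 spot passed: BOP1, no pancreatic gene, at signal percentile 0.2 (adjusted p 0.034), named here because it was the only call. In the other alternatives 0 passed. Blank positions reached 25.02, below the lowest intensity of the 11 spots, 81.1. How much signal came from RNA of other genes was not tested.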
